A study of Mus musculus with 6 samples.

Results

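The DNA replication machinery was examined in Lewis lung carcinoma (LLC) cells, a mouse lung tumour line, after transfection with a microRNA mimic. The library labels call it miR-291-3, and it is taken here as miR-291a-3p, the microRNA that the series title and design text name. The 50 genes were taken by symbol from a list that covers origin licensing, the replicative helicase, the polymerases, the sliding clamp and its loader, and chromatin assembly. All 50 were found among the 24794 genes of the deposited count table, and all 50 passed the filter on low counts, which left 13779 genes. The values came from poly(A) RNA sequencing of 3 libraries of cells given the miR-291a-3p mimic and 3 libraries of cells given a control mimic. The labels give no dose and no time after transfection for either group, and name no genetic change in the cells. Separate cultures are not stated for the replicates of either group, and the p-values therefore cover no more than library-to-library spread, part of which can be technical. Mature microRNA is not read by poly(A) libraries, and the level of the mimic itself was not analysed here.

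Replication starts at origins that are marked by the origin recognition complex (ORC). ORC, Cdc6 and Cdt1 load the MCM2-7 helicase ring onto DNA before S phase, and the Dbf4-dependent kinase, Cdc45 and GINS then turn the ring into an active helicase. Polymerase alpha-primase lays down primers, polymerases delta and epsilon extend them on a clamp of PCNA loaded by RFC, RPA covers the single strands, and CAF-1 places histones on the new DNA. Many of these genes are transcribed under E2F factors towards S phase, and their messages are abundant in dividing tumour lines.

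miR-291a-3p belongs to a family of embryonic stem cell microRNAs that share a seed, the bases at positions 2 to 8 that pair with target messages. The mature sequences below, from RefSeq on GRCm38.p6, show the seed in capitals; miR-291a-3p lies at chr7:3218968-3218989 on the plus strand. They are shown because the seed defines the sites sought in the replication genes.
mmu-miR-291a-3p: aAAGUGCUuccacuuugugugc
mmu-miR-294-3p: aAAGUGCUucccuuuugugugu
mmu-miR-302b-3p: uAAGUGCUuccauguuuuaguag
mmu-miR-291b-3p: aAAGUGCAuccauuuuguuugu
The seed of miR-294-3p and miR-302b-3p had the same letters as that of miR-291a-3p, whereas miR-291b-3p ended its seed in another base.

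Depth was 25376993, 28316848 and 29058948 counts in the mimic libraries and 29568848, 28318155 and 32963986 counts in the control libraries. The replication genes took 0.545%, 0.542% and 0.542% of the counts in the mimic libraries, against 0.605%, 0.606% and 0.609% in the control libraries. Mitochondrial genes took 3.17% to 3.23% of counts in the mimic libraries and 3.67% to 3.80% in the control libraries; their part in the results was not tested. Among the markers of LLC cells, Krt8, a keratin of simple epithelia, had 545 to 562 CPM (counts per TMM-scaled library size) in the mimic libraries and 486 to 501 CPM in the control libraries. The mesenchymal filament gene Vim had 1866 to 1899 CPM in the mimic libraries and 2049 to 2072 CPM in the control libraries. The epithelial adhesion genes Epcam and Cdh1 were at or near 0 in both groups (at most 0.145 CPM with the mimic and 0.149 CPM in controls), and Krt18 had 3.13 to 4.39 CPM in the mimic libraries and 1.64 to 2.36 CPM in the control libraries. In edgeR's test Krt8 (log2 change 0.16, adjusted p 3.11e-08) and Krt18 (0.90, 2.71e-05) rose and Vim fell (-0.14, 3.33e-08). The leukocyte marker Cd68 had 1.12 to 1.64 CPM in the mimic libraries and 1.25 to 2.06 CPM in the control libraries, and Ptprc, Adgre1 and Itgam were at 0 in every mimic library and at most 0.243 CPM in the control libraries. The 3 endothelial markers in the table summed to 0.481 to 0.808 CPM in the mimic libraries and 0.347 to 0.598 CPM in the control libraries, nearly all of it Pecam1, with Tek at 0 in every mimic library and Cdh5 at 0 in every control library.

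Of the 50 replication genes, 30 fell, 7 rose and 13 did not pass the test in the mimic libraries relative to the control libraries. A gene was called where its Benjamini-Hochberg adjusted p from edgeR's quasi-likelihood test over all tested genes was under 0.05. The fallen were 60% of the members and the risen 14%, beside 24.8% fallen and 24.3% risen among all tested genes. The members were better expressed than most genes, with a median of 86.7 CPM in the control libraries against 22.5 CPM for all tested genes. Among the 7245 tested genes with a control mean of at least 20 CPM, a limit chosen after the values were seen, 28.5% fell and 37.2% rose.

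The changes were small. The log2 changes ran from -0.46 for Timeless to 0.245 for Orc2, with a median of -0.097 beside -0.0078 for all tested genes, and 39 of the 50 were below 0. A fall of at least 1.2-fold was called for 5 members (Timeless, Rfc3, Lig1, Pola1 and Cdt1), which is 10% of them beside 13.6% of all tested genes. The largest rise among the members, 18.5% for Orc2, was below 1.2-fold, whereas 7.61% of all tested genes were called with a rise of at least that size. These shares are not matched for expression: the lowest control mean was 23.4 CPM among the members and 0.083 CPM among all tested genes. The summed level of the 50 genes was 5541 ± 9.0 CPM in the mimic libraries and 5954 ± 14.4 CPM in the control libraries (SD, n = 3 each), so that it fell by 6.94%. In 31 members the 3 mimic libraries all lay below the 3 control libraries, beside 27.9% of all tested genes. In 8 members they all lay above, beside 27.0% of all tested genes.

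**Figure D1:**
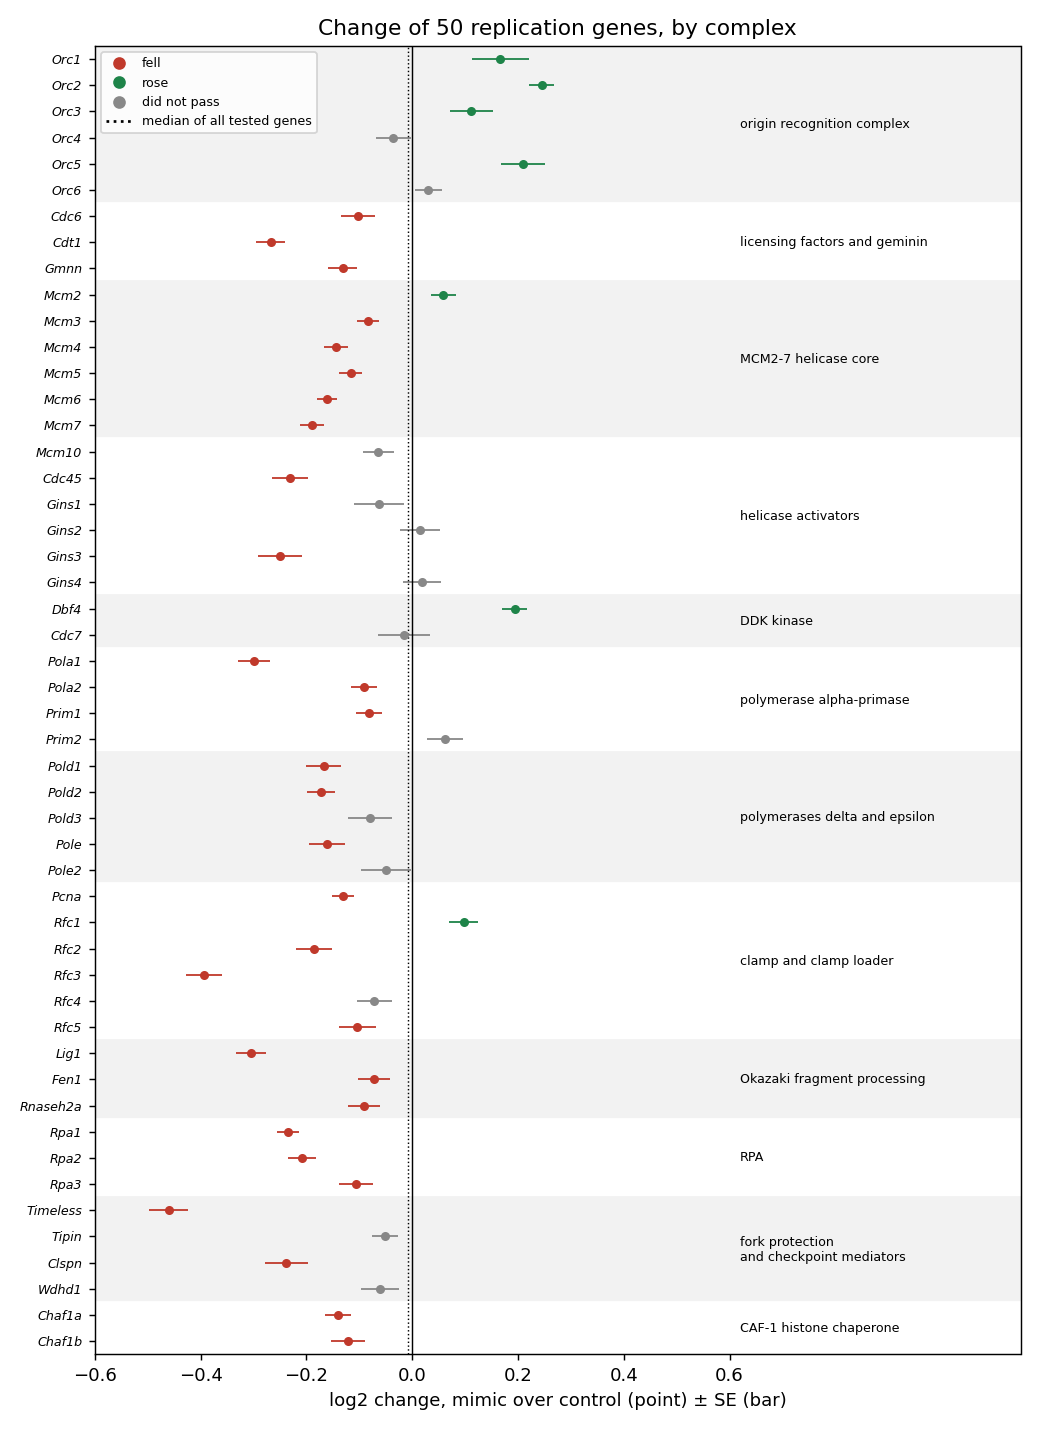
Log2 change (mimic over control, x axis) of each of the 50 replication genes, grouped by complex, with bars of 1 SE and the median of all tested genes as a dotted line. The origin recognition complex and Dbf4 lie to the right of 0 apart from Orc4, and most other genes lie to the left, down to -0.46 for Timeless; with total counts in place of TMM scaling the points of Orc6, Gins2 and Gins4 cross to the left of 0.

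**Figure D2:**
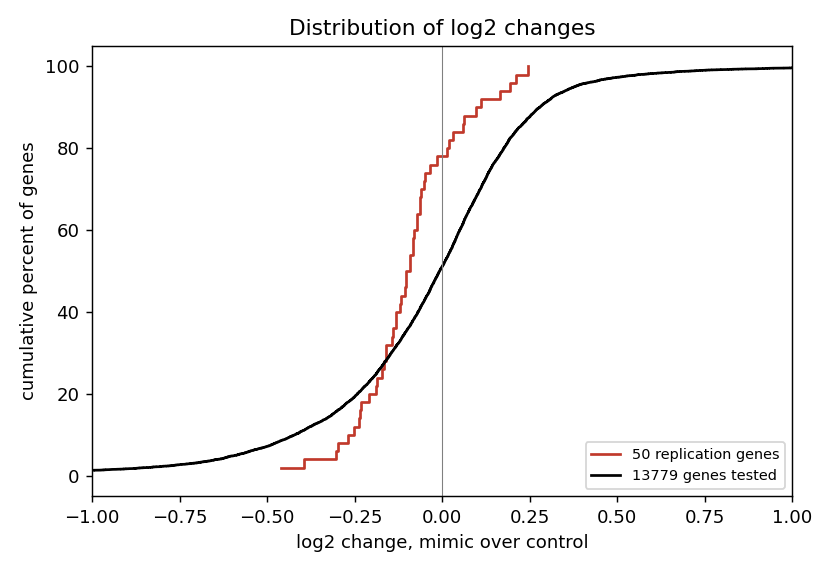
Cumulative percent of genes (y axis) by log2 change of mimic over control (x axis, cut at -1 and 1) for the 50 replication genes and for all 13779 tested genes. The curve of the replication genes is steeper, with 39 of 50 below 0 and no member below -0.46 or above 0.245. The members are better expressed than most tested genes, and the curves are not matched for expression.

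The origin recognition complex went the other way from most of the machinery. Of its 6 subunits 4 rose (Orc1, Orc2, Orc3 and Orc5), and Orc4 and Orc6 did not pass. For comparison, 24.3% of all tested genes rose, and 37.2% of those with a control mean of at least 20 CPM. The calls of Orc1 and Orc3 did not hold under every alternative, as given below. The 6 genes summed to 463, 471 and 469 CPM in the mimic libraries, against 430, 429 and 428 CPM in the control libraries.
Orc2, a core subunit, had 165, 166 and 164 CPM in the mimic libraries, against 139, 140 and 138 CPM in the control libraries. Its groups lay far apart, with a log2 change of 0.245 ± 0.023 (SE) and an adjusted p of 3.04e-10. Orc5, an ATP-binding subunit, had 41.4, 44.6 and 42.8 CPM in the mimic libraries, against 37.2, 38.4 and 36.1 CPM in the control libraries. This is a log2 change of 0.21 ± 0.041, with an adjusted p of 8.37e-05, and every mimic library was the higher. Orc1, the subunit whose ATPase activity drives helicase loading, had 26.7, 25.2 and 26.9 CPM in the mimic libraries, against 21.8, 24.8 and 23.6 CPM in the control libraries. The second mimic library and the second control library were close to each other, and the log2 change was 0.17 ± 0.054 with an adjusted p of 0.0105. Orc3, which pairs with Orc2 in the core, had 40.6, 43.4 and 41.7 CPM in the mimic libraries, against 39.0, 37.4 and 39.8 CPM in the control libraries. Its log2 change was 0.11 ± 0.041 with an adjusted p of 0.0240, and the lowest mimic library stood just above the highest control library.

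Orc4, the other ATP-binding subunit beside Orc1 and Orc5, had 66.8 to 71.1 CPM in the mimic libraries and 69.8 to 71.5 CPM in the control libraries, with an adjusted p of 0.390. Orc6, the smallest subunit, had 120 to 125 CPM in the mimic libraries and 119 to 121 CPM in the control libraries, with an adjusted p of 0.346. In both genes the groups overlapped.
The rise of Orc1 and Orc3 depended on the scaling: with total counts only, their adjusted p was 0.0920 and 0.280, and Orc4 fell (log2 change -0.092, adjusted p 0.0195), whereas Orc2 and Orc5 still passed. With limma on log2 of the authors' FPKM plus 1, Orc1 and Orc3 did not pass either (adjusted p 0.0814 and 0.209). Without the first control library Orc1 no longer passed (adjusted p 0.0897), nor did Orc3 with DESeq2 (0.0722) or without the second mimic library (0.126) or the second control library (0.117). In the GENCODE M21 annotation, 29.8% of the exonic bases of Orc2 lie on the strand opposite to exons of Nif3l1, which had a mean of 71.5 CPM and a log2 change of 0.12; the libraries keep strand, but the strand setting of the counting is not given in the sources used here.

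All 3 genes of licensing control fell. Cdt1, which brings the MCM2-7 ring to ORC, had 104, 111 and 108 CPM in the mimic libraries, against 128, 131 and 130 CPM in the control libraries. Its expression fell by 16.9% (log2 change -0.27 ± 0.027, adjusted p 9.67e-10), and no mimic library came near a control library. Gmnn encodes geminin, the inhibitor of Cdt1, and fell by 8.72% (log2 change -0.13, adjusted p 2.13e-04), with 88.9 to 90.3 CPM in the mimic libraries and 96.6 to 98.9 CPM in the control libraries. Cdc6, the ATPase that joins ORC at the origin, fell by 6.85% (log2 change -0.10, adjusted p 0.00869), with 66.2 to 69.3 CPM in the mimic libraries and 71.3 to 73.9 CPM in the control libraries. Cdc6 no longer passed without the third mimic library (adjusted p 0.0727).

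The MCM2-7 genes encode the 6 subunits of the helicase ring, which occur in equal number in the protein complex. Of these, 5 fell and Mcm2 was the exception.
Mcm6 had 393, 385 and 390 CPM in the mimic libraries, against 437, 437 and 431 CPM in the control libraries, a log2 change of -0.16 ± 0.019 (adjusted p 3.03e-08). Mcm7, Mcm4, Mcm5 and Mcm3 fell too, with log2 changes of -0.19, -0.14, -0.12 and -0.084 and adjusted p of 4.35e-08, 4.02e-06, 5.96e-05 and 8.30e-04. In each of these 5 genes the lowest control library was above the highest mimic library. Mcm2 had 176, 183 and 182 CPM in the mimic libraries, against 175, 170 and 175 CPM in the control libraries. The gap between its groups was narrow, and the log2 change was 0.058 ± 0.024 (adjusted p 0.0403).
The call of Mcm2 was not stable. Its log2 change was 0.0018 with total counts only (adjusted p 0.959), its adjusted p was 0.0652 with DESeq2, and it did not pass without the second or the third mimic library (0.136 and 0.0939) or the second or the third control library (0.175 and 0.0540). What did not depend on the scaling of libraries was its level relative to the other subunits. The ratio of Mcm2 to the mean of Mcm3 to Mcm7 in CPM was 0.628, 0.648 and 0.644 in the mimic libraries, against 0.565, 0.549 and 0.568 in the control libraries. Likewise the summed CPM of ORC was 0.293, 0.296 and 0.295 of that of MCM2-7 in the mimic libraries and 0.250 in each of the control libraries. Mcm2 and ORC were picked out by these same values, so the gaps in the ratios follow from the changes above and add no separate support. The ratios describe unequal change and do not say which side moved.

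The step that activates the helicase was split. Of the 6 genes of this group, Cdc45 and Gins3 fell and Mcm10, Gins1, Gins2 and Gins4 did not pass.
Cdc45, the helicase cofactor that joins the ring with GINS, had 73.7, 72.8 and 66.9 CPM in the mimic libraries, against 84.5, 82.1 and 83.6 CPM in the control libraries. The third mimic library was the lowest, and the log2 change was -0.23 ± 0.034 (adjusted p 9.59e-07). Gins3 had 38.5, 36.1 and 35.8 CPM in the mimic libraries, against 42.2, 43.7 and 45.1 CPM in the control libraries. It fell by 16.0% (log2 change -0.25 ± 0.042, adjusted p 7.49e-06).
The other 3 genes of the 4-subunit GINS complex had log2 changes of -0.063 (Gins1), 0.015 (Gins2) and 0.019 (Gins4), with adjusted p of 0.286, 0.782 and 0.702, and their groups overlapped; with total counts only, Gins2 and Gins4 were at -0.042 and -0.038 and Gins1 fell (adjusted p 0.0362). Gins3 was thus the GINS gene that passed under TMM scaling, though its difference from the other subunits was not tested. Mcm10, which takes part in starting the helicase, had 78.5 to 79.6 CPM in the mimic libraries and 82.3 to 83.1 CPM in the control libraries. Mcm10 missed the threshold in the main test (adjusted p 0.0686). Mcm10 passed it with total counts only (9.13e-04), and under TMM at 2 CPM or more in 3 libraries (0.0387). Most exonic bases of Gins2 (67.3%) lie opposite to exons of Gse1, which had a mean of 25.4 CPM and a log2 change of 0.025.

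Dbf4, the regulatory subunit that turns on the kinase Cdc7, rose, while Cdc7 did not pass. Dbf4 had 167, 163 and 163 CPM in the mimic libraries, against 144, 144 and 143 CPM in the control libraries. The log2 change was 0.19 ± 0.024 (adjusted p 3.68e-08), and Dbf4 passed under every alternative run. Cdc7 had 28.5 to 31.6 CPM in the mimic libraries and 29.8 to 31.8 CPM in the control libraries, with an adjusted p of 0.817. The ratio of Dbf4 to Cdc7 in CPM was 5.44, 5.16 and 5.73 in the mimic libraries, against 4.54, 4.79 and 4.78 in the control libraries. Each mimic library had the higher ratio, which restates the values of the 2 genes and is no separate result.

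**Figure D3:**
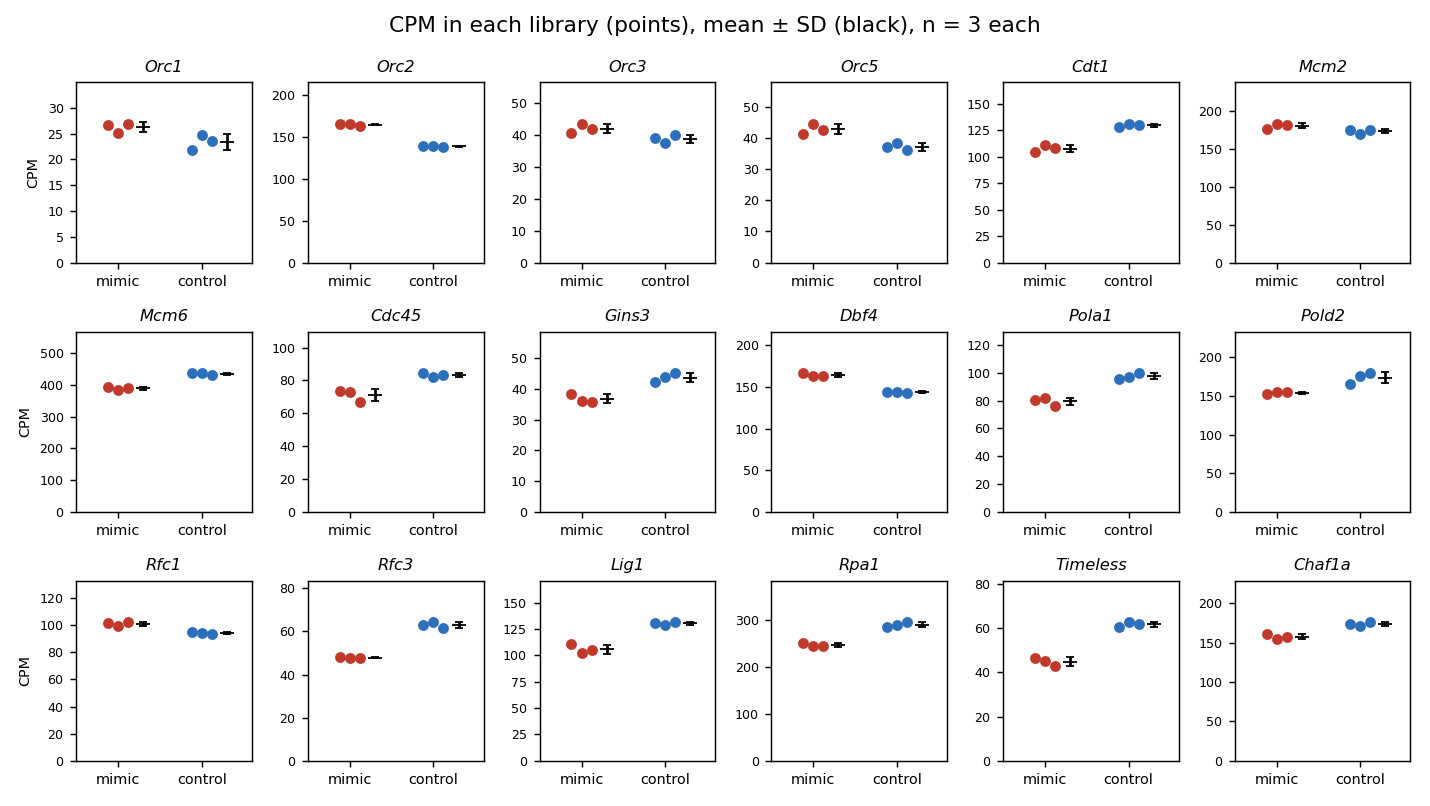
CPM (y axis, from 0) in each library for 18 replication genes, with 3 mimic libraries in red, 3 control libraries in blue and the mean ± SD in black. These are the 7 genes that rose, the called gene with the smallest adjusted p in each complex and the 6 genes with the largest falls; with total counts only, Orc1, Orc3, Mcm2 and Rfc1 no longer passed.

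Among the polymerases, 6 of 9 subunit genes fell, and Prim2, Pold3 and Pole2 did not pass. Pola1, the catalytic subunit of polymerase alpha on the X chromosome, had 80.3, 81.8 and 76.4 CPM in the mimic libraries, against 96.0, 97.3 and 99.9 CPM in the control libraries. It fell by 18.7% (log2 change -0.30 ± 0.031, adjusted p 1.39e-09). The regulatory subunit Pola2 and the catalytic primase Prim1 fell by 6.15% and 5.56% (adjusted p 0.00242 and 0.00580). Prim2, the large primase subunit, had 60.8 to 63.0 CPM in the mimic libraries and 58.0 to 60.5 CPM in the control libraries; its groups did not overlap, but it did not pass (adjusted p 0.129). Within this 4-gene complex the changes therefore ran from -0.30 for Pola1 to 0.062 for Prim2.

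Pold2, an accessory subunit of the lagging-strand polymerase delta, had 153, 155 and 155 CPM in the mimic libraries, against 166, 176 and 180 CPM in the control libraries. Its log2 change was -0.17 ± 0.026 (adjusted p 1.95e-06), with the control libraries more spread than the mimic libraries. The catalytic subunit Pold1 fell with a log2 change of -0.17 (adjusted p 8.55e-05), and Pole, the catalytic subunit of the leading-strand polymerase epsilon, fell by 10.6% (2.16e-04). Pold3 (log2 change -0.080, adjusted p 0.116) and Pole2 (-0.050, 0.404), accessory subunits of the same polymerases, did not pass, and their groups overlapped. With total counts only, Pold3 also passed (0.00737).

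PCNA, the sliding clamp, and 3 of the 5 RFC clamp loader genes fell, and Rfc1 rose. Rfc3, a small subunit that is shared by all forms of the loader, had 48.0, 47.9 and 47.6 CPM in the mimic libraries, against 62.9, 64.3 and 61.6 CPM in the control libraries. The mimic libraries were almost equal, and Rfc3 fell by 23.9% (log2 change -0.39 ± 0.035, adjusted p 4.99e-11). Rfc1, the large subunit that is specific to the loader of replication forks, had 101, 99.3 and 102 CPM in the mimic libraries, against 95.0, 94.5 and 93.6 CPM in the control libraries. Its log2 change was 0.097 ± 0.028 (adjusted p 0.00389), but it did not pass with total counts only (0.229).
The small subunits Rfc2 and Rfc5 fell by 12.1% and 6.93% (adjusted p 3.81e-05 and 0.0158). Rfc4 missed the threshold in the main test (log2 change -0.072, adjusted p 0.0691). Rfc4 passed it with total counts only (0.00147), and under TMM at 2 CPM or more in 3 libraries (0.0407). Rfc5 did not pass with DESeq2 (0.0705), nor without the first mimic (0.118), second mimic (0.0665) or the third control library (0.0616). Pcna had 312 to 323 CPM in the mimic libraries and 344 to 355 CPM in the control libraries and fell by 8.67% (log2 change -0.13, adjusted p 3.77e-06). A processed copy of Pcna, Pcna-ps2, was listed with 31.7 to 36.5 CPM in the mimic libraries and 38.1 to 40.4 CPM in the control libraries; adding its counts to Pcna, an alternative chosen after seeing the data, left the call of each member as it was.

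All 3 genes of lagging-strand processing were called as fallen in the main test, by unequal amounts. The calls of Fen1 and Rnaseh2a did not hold under several alternatives. Lig1, the ligase that seals Okazaki fragments, had 110, 102 and 105 CPM in the mimic libraries, against 131, 128 and 131 CPM in the control libraries. It fell by 19.0% (log2 change -0.30 ± 0.028, adjusted p 1.62e-10). Rnaseh2a, the catalytic subunit of RNase H2, fell by 6.15% (adjusted p 0.0116). Fen1, the flap endonuclease, had 111, 115 and 108 CPM in the mimic libraries and 112, 121 and 119 CPM in the control libraries; its groups overlapped and its adjusted p was 0.0483. Fen1 did not pass with DESeq2 (0.149), nor without the first or the third mimic library (0.131 and 0.315) or the second or the third control library (0.235 and 0.166). In edgeR it also missed the threshold with DESeq2 size factors (0.0696) and without a filter (0.107). The same held with limma on log2 of FPKM plus 1 (0.0677) or plus 0.1 (0.0649). Rnaseh2a did not pass with DESeq2 (0.0566), nor without the first or the third mimic library (0.0851 and 0.0781). An antisense transcript, Gm10143, lies opposite to 78.8% of the exonic bases of Fen1. Gm10143 had a mean of 8.50 CPM and a log2 change of -0.457.

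Each of the 3 RPA genes, which encode the single-strand binding protein, fell. Rpa1, the large DNA-binding subunit, had 251, 244 and 246 CPM in the mimic libraries, against 286, 290 and 296 CPM in the control libraries. Its log2 change was -0.23 ± 0.021 (adjusted p 9.53e-11), and its groups lay far apart. Rpa2, the subunit that is phosphorylated upon fork stress, fell by 13.5% (adjusted p 7.31e-08), and its libraries were tight, at 98.9 to 101 CPM with the mimic and 115 to 116 CPM in controls. Rpa3, the smallest subunit, fell by 7.11% (adjusted p 0.00694), but not past the threshold without the second mimic or the first control library (0.0593 and 0.0700). The median log2 change of RPA was -0.21, the lowest of the 12 groups under TMM scaling.

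Fork protection held the largest fall of all 50 genes. Timeless had 46.5, 45.3 and 42.7 CPM in the mimic libraries, against 60.6, 62.7 and 61.7 CPM in the control libraries. It fell by 27.3% (log2 change -0.46 ± 0.037, adjusted p 7.01e-12). Tipin encodes the partner with which Timeless forms the fork protection complex, and had 148 to 153 CPM in the mimic libraries and 153 to 157 CPM in the control libraries. Tipin did not pass in the main test (log2 change -0.051, adjusted p 0.0808). Tipin did pass with total counts only (4.21e-04), and under TMM at 2 CPM or more in 3 libraries (0.0397). Clspn encodes claspin, the mediator that hands the checkpoint signal to Chk1, and fell by 15.2% (log2 change -0.24 ± 0.041, adjusted p 1.14e-05). Wdhd1, which links polymerase alpha to the helicase, had 54.1 to 57.3 CPM in the mimic libraries and 56.1 to 59.3 CPM in the control libraries and did not pass (adjusted p 0.165), though it did with total counts only (0.00679).

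Both members that encode subunits of CAF-1, the chaperone that deposits histones H3 and H4 behind the fork, fell. Rbbp4, a further CAF-1 subunit gene outside the member list, rose in the same test (log2 change 0.14, adjusted p 4.67e-07). Chaf1a had 162, 155 and 157 CPM in the mimic libraries, against 174, 171 and 176 CPM in the control libraries. Its log2 change was -0.14 ± 0.024 (adjusted p 1.21e-05). Chaf1b fell by 8.10% (adjusted p 0.00198). Of the exonic bases of Chaf1a, 52.5% lie opposite to exons of Ubxn6, which had a mean of 48.7 CPM and a log2 change of -0.016.

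Levels per transcript length, as the authors' FPKM, differed widely between the genes. Pcna was the highest at 115 ± 2.65 FPKM in the mimic libraries and 129 ± 2.52 FPKM in the control libraries (SD, n = 3 each). Pole was the lowest at 4.03 ± 0.056 FPKM in the mimic libraries and 4.62 ± 0.092 FPKM in the control libraries. The subunits of the helicase ring were not at equal levels: in the mimic libraries Mcm3 stood at 92.6, Mcm6 at 72.2, Mcm5 at 59.5, Mcm4 at 43.3, Mcm7 at 32.0 and Mcm2 at 22.4 FPKM. The order was the same in the control libraries, at 101, 82.8, 66.1, 49.0, 37.4 and 22.1 FPKM. Within ORC, Orc6 and Orc2 stood apart from the rest, at 43.0 and 37.0 FPKM in the mimic libraries and 43.1 and 32.0 FPKM in the control libraries, whereas Orc1, Orc3, Orc4 and Orc5 lay between 5.96 and 7.99 FPKM in the mimic libraries and between 5.35 and 8.39 FPKM in the control libraries. Across the 50 members, the log2 change and the control FPKM had a Spearman's rho of -0.231, given as a description since the genes share libraries and are not replicates.

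**Figure D4:**
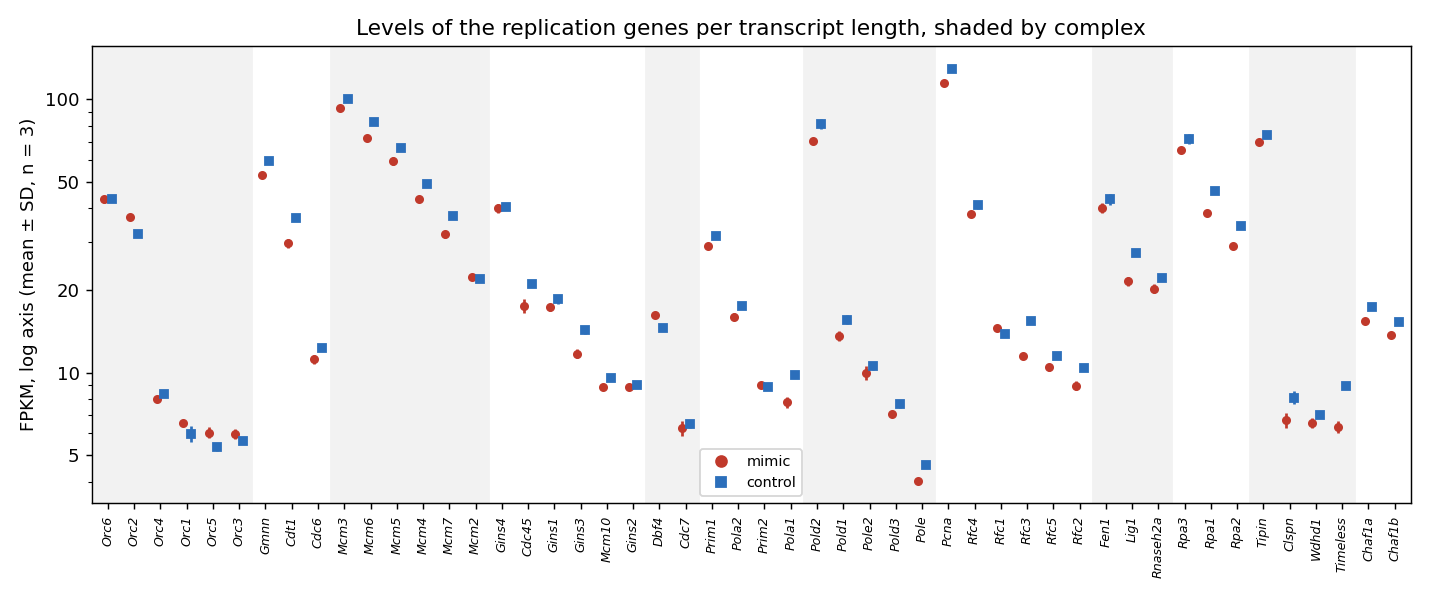
Mean FPKM (y axis, log scale) of the 50 replication genes in mimic libraries (circles) and control libraries (squares), with bars of 1 SD (n = 3 each), ordered by level within each shaded complex. Pcna and Mcm3 are the highest, Pole is the lowest, and Orc2 is one of the few genes whose mimic point lies above its control point on this scale.

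Scaling mattered for the direction of the smallest changes. The TMM factors were 0.978 to 0.983 in the mimic libraries and 1.02 in each of the control libraries, and with total counts only the median of all tested genes was -0.064. On that scale 37 members fell, beside 32.3% of all tested genes, and 3 rose, beside 17.0% of all tested genes. The 3 were Orc2, Orc5 and Dbf4, and the median log2 change of the members was -0.15.

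**Figure D5:**
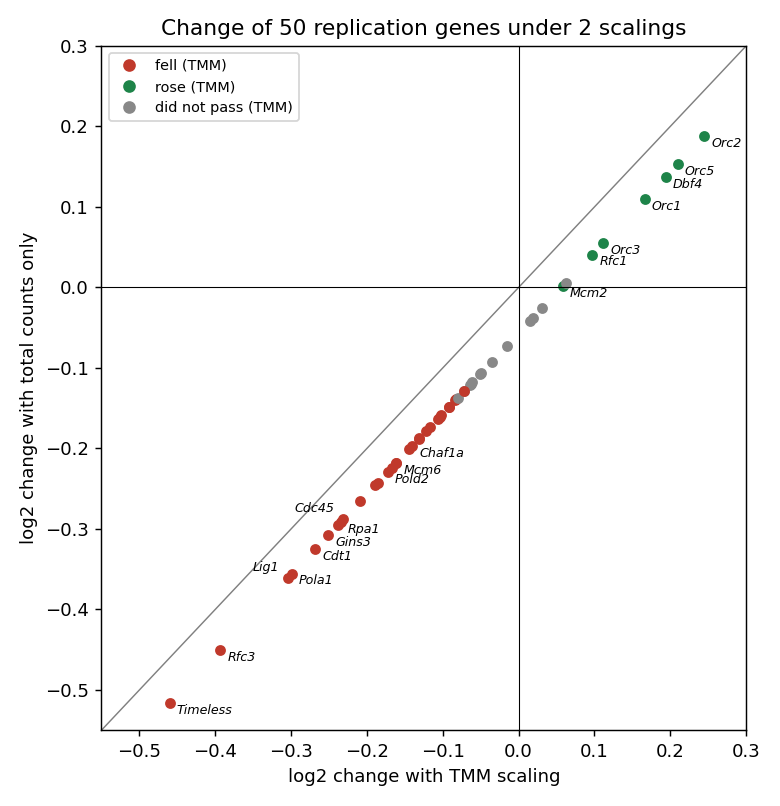
Log2 change (mimic over control) of the 50 replication genes with TMM scaling (x axis) and with total counts only (y axis); the diagonal marks equality. Each point lies just below the diagonal, so that Orc6, Gins2 and Gins4 change sign, Mcm2 comes to 0.0018, and Orc2, Orc5 and Dbf4 stay above 0 and past the threshold.

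Genes that work beside the members were read from the same test. Of 27 other replication genes, 6 fell (22.2%), 3 rose (11.1%) and 18 did not pass, beside 24.8% fallen and 24.3% risen among all tested genes, so that the list shows no excess of calls in either direction. Its median log2 change was -0.069 beside -0.0078 for all tested genes. Of those that fell, the 3 lowest in adjusted p were Asf1b, a histone chaperone that hands H3 and H4 to CAF-1 (-0.49, adjusted p 7.59e-15), Mtbp, a partner of Ticrr in origin firing (-0.47, 9.30e-11), and Dscc1, a subunit of an alternative clamp loader (-0.40, 7.49e-05). Top1, the topoisomerase that relaxes DNA ahead of the fork (0.30, 5.04e-12), Rbbp4, the histone-binding subunit of CAF-1 (0.14, 4.67e-07), and Asf1a, the paralog of Asf1b (0.14, 8.73e-04), rose. CAF-1 thus had 2 subunit genes that fell and a further one that rose.

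Markers of the cell cycle moved as well. For comparison, 24.8% of all tested genes fell and 24.3% rose. Of the tested genes with a control mean of at least 20 CPM, 28.5% fell and 37.2% rose. Of 10 genes that mark S phase 7 fell and 1 rose: Rrm2 (-0.30, adjusted p 6.40e-14) and Rrm1 (-0.18, 2.35e-08), the subunits of ribonucleotide reductase, and Dtl, a ligase adaptor that directs Cdt1 for destruction (-0.20, 3.33e-07), were lower, and Ung, a uracil glycosylase (0.52, 3.36e-12), was higher. The S-phase markers summed to 1380 to 1383 CPM in the mimic libraries and 1510 to 1544 CPM in the control libraries. Of 10 genes that mark G2 and mitosis 6 fell (60%) and 2 rose (20%), the latter below the risen share of all tested genes. Ccnb2, a mitotic cyclin (-0.48, adjusted p 5.30e-16), Mki67, a proliferation antigen (-0.38, 5.51e-14), and Top2a, the decatenating topoisomerase (-0.25, 1.46e-12), fell, while the mitotic kinases Aurka (0.078, 0.0105) and Plk1 (0.060, 0.0495) rose. Plk1 stood just under the threshold, and these markers were read under TMM scaling only, so the small rises may depend on it. The G2 and mitosis markers summed to 2091 to 2130 CPM in the mimic libraries and 2321 to 2384 CPM in the control libraries. The part of cell-cycle distribution in the changes of the replication genes was not tested, and in bulk RNA fewer cells in S phase and less RNA per cell cannot be told apart.

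Sites for the seed were sought in the 3' UTR of each member, taken from GENCODE M21 on GRCm38 as the longest annotated per gene. A site of 7 bases or longer was present in 9 of the 50 members (18%), beside 20.7% of 11571 tested genes with a 3' UTR, and the members' UTRs were shorter, with a median of 684 bases beside 1154 bases. The words were AGCACTTA for an 8mer, AGCACTT for a 7mer-m8, GCACTTA for a 7mer-A1 and GCACTT for a 6mer, each read on the strand of the message. The 8mer was in 0 members, beside 3.54% of all tested genes. A 7mer-m8 was found in Cdc6, Chaf1a, Gins3, Rfc2 and Rpa2, a 7mer-A1 in Cdt1, Mcm6, Orc4 and Pola1, a 6mer alone in Mcm3, Mcm7, Orc2 and Rpa1, and no site in the other 37. Of the 9 genes with a site of at least 7 bases, 8 fell and Orc4 did not pass. Of the 41 members without one, 22 fell. The fallen were 60% of all members, beside 24.8% of all tested genes. The fallen share among all tested genes with such a site is not given here. The median log2 change of the 9 members with a site was -0.19, beside -0.083 for the 41 members without one. For all tested genes the medians were -0.071 with such a site and 0.014 without. Of the 6 members with the largest falls, Timeless, Rfc3 and Lig1 had no site of 6 bases or longer in these UTRs. The others of these, Pola1, Cdt1 and Gins3, had a site of 7 bases.
The sites of 5 fallen genes from different steps of replication are shown with their flanks, the matched bases in capitals.
Cdt1: cagtacacgacGCACTTAcgcctttaagc
Mcm6: catggtgacacGCACTTAaatcctagtgc
Gins3: tgtgcggattgAGCACTTgaagagcagag
Pola1: ttagaaagtttGCACTTActaaatacaaa
Rpa2: cacagtagtaaAGCACTTgcctgccatcc
On GRCm38 the matched bases lie at chr8:122572694-122572700 (plus strand) for Cdt1, chr1:128332641-128332647 (minus) for Mcm6, chr8:95644300-95644306 (plus) for Gins3, chrX:93305158-93305164 (minus) for Pola1 and chr4:132778729-132778735 (plus) for Rpa2. Chaf1a was the member with 2 sites of 7 bases, both of them 7mer-m8.
A match is a description of the sequence and does not show that the microRNA binds there, and the UTRs used may differ from those expressed in LLC cells.

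Promoters were searched for words of the E2F family, since many replication genes are known E2F targets. RefSeq promoters on GRCm38.p6, from 250 bases before to 50 bases after the start, were given for 41 members, all but Gins1, Gins2, Gins4, Gmnn, Mcm4, Pole, Prim2, Rfc2 and Tipin. At least one of TTTCCCGC, TTTCGCGC, TTTGCCGC and TTTGGCGC, on either strand and with overlapping words counted each, was found in 16 of the 41 (39.0%), beside 4.82% of 9777 tested genes with a promoter. Among members that fell it was found in 12 of 26 (46.2%), among those that rose in 2 of 7 (28.6%), which were Orc1 and Orc3, and among those that did not pass in 2 of 8, which were Pold3 and Pole2. The CCAAT word was in 58.5% of the members' promoters beside 43.6% of all, and TTTGAA, the core of the CHR element of late cell-cycle genes, was in 17.1% beside 14.5%.
Stretches of 60 bases are shown on the strand of the gene for 4 fallen members and for the risen Orc1, with the words in capitals.
Mcm5: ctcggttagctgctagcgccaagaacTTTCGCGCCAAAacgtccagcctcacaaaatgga
Mcm6: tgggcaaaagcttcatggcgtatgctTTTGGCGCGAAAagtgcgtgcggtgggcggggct
Rfc3: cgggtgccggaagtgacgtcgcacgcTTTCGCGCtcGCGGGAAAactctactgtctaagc
Cdt1: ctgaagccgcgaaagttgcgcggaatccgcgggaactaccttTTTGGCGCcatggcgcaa
Orc1: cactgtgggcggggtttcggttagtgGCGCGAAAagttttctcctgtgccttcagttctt
They span chr8:75109330-75109389 (Mcm5, plus strand), chr1:128359782-128359841 (Mcm6, minus), chr5:151651185-151651244 (Rfc3, minus), chr8:122568005-122568064 (Cdt1, plus) and chr4:108579401-108579460 (Orc1, plus). In Mcm5 and Mcm6 a pair of words on opposite strands overlapped, and in Rfc3 a pair lay side by side. The words stood in promoters of genes that fell and of genes that rose, and the presence of a word says nothing about whether a factor was bound.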

How the data were processed

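RNA of 3 mimic and 3 control libraries of LLC cells was sequenced as stranded, paired-end poly(A) libraries, per the labels' protocols. HISAT2, DESeq2 and the build GRCm39 are named, without versions, in the submitters' processing notes. Which program counted the reads, with what strand setting and on which annotation is not given in the sources used here. Per gene, the authors deposited whole-number read counts, which were tested here, and FPKM values (24494 genes), used here for levels and in an alternative. The main test was edgeR's quasi-likelihood test (version 4.0.16, R 4.3.3, filterByExpr, TMM, Benjamini-Hochberg, threshold 0.05); the SE is the size of the log2 change divided by the square root of F. CPM use TMM-scaled library sizes. Alternatives used DESeq2 1.42.0 and limma 3.58.1 (log2 of FPKM plus 1 or 0.1). The biological coefficient of variation was 2.02%, and the first principal component (54.9% of the variance) separated the groups. Libraries of a group differed by more than sampling noise (mean chi-square per gene 1.84 to 2.23) and each stood as 1 replicate.

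The members and lists were chosen with earlier results of these data known. Values in every library are given for each member that rose, for the called member with the smallest adjusted p in each complex and for the 6 members with the largest falls. Of other lists, the 3 called genes with the smallest adjusted p in each direction are named. On GRCm38, 3' UTRs came from GENCODE M21 by gene ID (version dropped) and promoters from RefSeq by symbol, with Python 3.11.15; this build differs from that of the counts, so its coordinates locate the sequences only. The test was tried on simulated data with known changes. Krt19, Cd3e and Kdr were not among the rows used here. One marker of the leukocyte list is not reported here.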

Additional observations from a re-analysis of the deposited data

How the results depend on the processing

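The 30 falls and 7 rises of members came to 29 and 7 with DESeq2 size factors in edgeR, 37 and 3 with total counts only, 27 and 5 with DESeq2's Wald test, 29 and 6 without a filter, 33 and 6 at 2 CPM or more in 3 libraries, 33 and 3 with limma on log2 of FPKM with either pseudocount, and 27 and 4 at an adjusted p under 0.01. Leaving out each library in turn gave 27 to 29 falls and 5 to 7 rises. The members' median log2 change of -0.097 was -0.0923 with DESeq2 size factors, -0.154 with total counts only, -0.0924 with the Wald test, -0.0903 without a filter, -0.104 at 2 CPM, -0.125 and -0.132 with FPKM plus 1 and plus 0.1, and -0.101 to -0.0877 with libraries left out. The median of all tested genes lay between -0.064 and -0.0009 over the same scalings and filters. With total counts only, FPKM plus 1 and FPKM plus 0.1, Orc6 was at -0.026, -0.0051 and -0.0052, Gins2 at -0.042, -0.018 and -0.020, and Gins4 at -0.038, -0.018 and -0.018; with libraries left out Gins4 ran from -0.010 to 0.058 and Cdc7 from -0.049 to 0.034. These 3 genes and Cdc7 passed in none of those fits. The cause of these shifts was not tested. Over all genes, 3423 fell and 3349 rose with TMM, against 4444 and 2341 with total counts only. These all-gene counts were 3345 and 3431 with DESeq2 size factors, and 2666 and 2887 with the Wald test. They were 3234 and 3332 without a filter, and 3290 and 3177 at 2 CPM. With FPKM plus 1 they were 3508 and 2323, and with FPKM plus 0.1 3501 and 2330. At an adjusted p under 0.01 they were 2651 and 2719. Leaving out each library in turn gave 2977 to 3142 falls and 3029 to 3249 rises. Libraries with the same replicate number had weak correlations (0.020, 0.075 and 0.055), though each was the best of its library. Whether the numbers pair the libraries is not settled by these values. The replicate block gave 30 falls and 7 rises, a median of -0.098, and 3484 falls and 3403 rises over all genes. The share of members with a seed site was 18% for 7 bases or longer, 0% for 8mers and 26% for 6 bases or longer; the E2F share was 39.0%, and 82.9% for the last 6 bases of each word, beside 66.9% of all promoters.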
